A study of Mus musculus with 29 samples.

Results

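Wild-type forebrain was compared with wild-type midbrain of mouse embryos at stage E11.5, at mid-gestation, by their genome-wide RNA levels in 4 RNA-seq libraries, 2 of each tissue, of the 29 samples in the series. All 25239 genes of the deposited count tables entered, and the 15022 genes with enough counts were tested. Each library was made from poly(A) RNA from dissected tissue of wild-type genotype, pooled over multiple dissections. The labels name neither strain nor sex, and the 2 replicates of a tissue are 2 such pools, so p-values measure the spread between pools. A further 4 libraries served mainly to check the direction of each difference. Of these, 2 came from forebrain of hs267-853 knockout embryos and 2 from midbrain of hs654 knockout embryos of the same stage. They also entered the choice of the top-ranked genes and a test of whether the regional difference differed between knockout and wild type. The hs numbers name enhancer elements. Hi-C samples of the series, 21 in number, are not used here.

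The neural tube of this stage is divided along its length into forebrain, midbrain and hindbrain, and each territory is given its identity by transcription factors that respond to signalling centres at its borders. Dorsal forebrain, the pallium, is known to depend on Emx2, Lhx2 and Pax6, and ventral forebrain, the subpallium, on Dlx, Gsx and Nkx2-1 proteins. Midbrain identity is known to depend on Otx2 and on En1, En2, Pax2 and Pax5, which are maintained by Fgf8 and Wnt1 from the border between midbrain and hindbrain. Neurons differentiate earlier in the ventral midbrain than in the pallium, where most cells are then still dividing progenitors.

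Total counts over genes were 14872668 and 13026016 in the forebrain replicates and 15780983 and 12367394 in the midbrain replicates. Below, values are CPM, the counts of a gene scaled to the library's total with TMM factors, with replicate 1 given before replicate 2, and differences are on the log2 scale as forebrain minus midbrain with their standard error (SE). A gene was called where the quasi-likelihood test of edgeR gave a Benjamini-Hochberg adjusted p under 0.05, and "higher" or "lower" is used of called genes only. The upper limit that a count of 0 allows, 3 counts, equalled 0.190 to 0.240 CPM in these libraries, and this floor covers counting error only. The exact counting intervals given below pool the counts of a tissue's replicates. They too cover counting error only, and not the spread between replicates. Where libraries of the tissues are said not to overlap, the genes had already been called, so this is no further test. The share of all tested genes without such overlap was not counted. In bulk tissue, fewer cells of a type and less RNA per cell cannot be told apart.

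Regional marker genes followed the tissue labels. Emx2, a homeobox gene of the pallium on chr19:59458690-59465357 (mm10), measured 141 and 140.1 CPM in forebrain and 14.6 and 23.5 CPM in midbrain (log2 difference 2.91, SE 0.14, adjusted p = 3.51e-08 in edgeR). Lhx2, a LIM homeobox gene on chr2:38339271-38369737, measured 489 and 489.9 CPM in forebrain and 110.5 and 106 CPM in midbrain (log2 difference 2.17, SE 0.058). Both genes had every forebrain library above every midbrain library, and neither was absent from midbrain. En2, on chr5:28165696-28172190, had no count in either forebrain library and 130.2 and 158 CPM in midbrain, so it was at least 622-fold higher in midbrain. En1, its paralogue on chr1:120602487-120607991, measured 6.44 and 3.94 CPM in forebrain and 20.996 and 25.1 CPM in midbrain, 4.38-fold higher in midbrain (adjusted p = 1.15e-05 in edgeR). Pax5, a paired-box gene on chr4:44524748-44710694, measured 1.02 and 1.39 CPM in forebrain and 57.7 and 82.2 CPM in midbrain (log2 difference -5.86, SE 0.24). Unlike En2, both En1 and Pax5 were counted in forebrain. Hox genes, which mark hindbrain and spinal cord, were at or near 0 in both tissues: of 39 Hox genes, 24 had no count in the 4 libraries, the highest value in any library was 0.479 CPM, and none was tested.

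Forebrain and midbrain differed in 4713 of the 15022 genes tested (31.4%), of which 2275 were higher in forebrain (15.1%) and 2438 were higher in midbrain (16.2%). Both directions were close in number but not in size. With midbrain replicate 1 left out, 1429 genes were higher in forebrain and 1722 in midbrain. Among called genes that differed by more than 2-fold, 453 were higher in forebrain and 927 in midbrain, and beyond 8-fold the numbers were 98 and 163. The median log2 difference of all tested genes was 0.0017. The biological coefficient of variation between replicates was 6.64%. Across genes, Pearson's r between replicates was 0.989 in forebrain and 0.990 in midbrain, against 0.938 to 0.947 between tissues, where genes are not independent replicates.

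**Figure D1:**
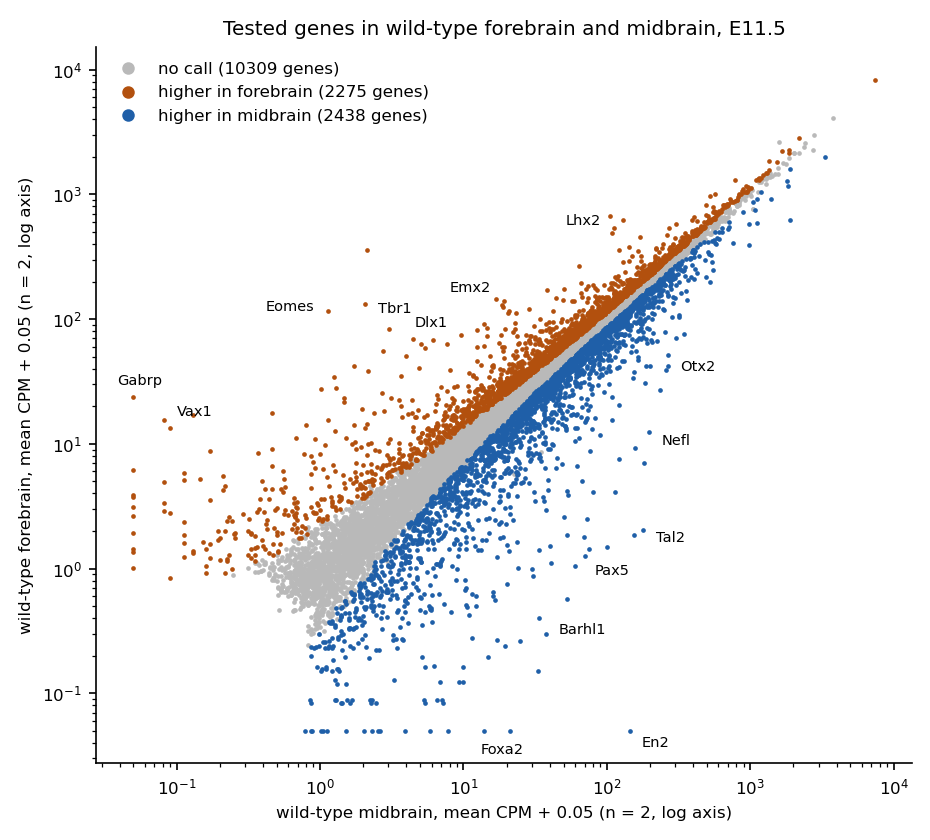
Mean CPM of each tested gene in wild-type midbrain (horizontal) and wild-type forebrain (vertical), each over 2 libraries with 0.05 added, on log axes; colours mark genes called higher in forebrain (2275), higher in midbrain (2438) or not called. En2 and Foxa2 lie on the lower edge, with no count in forebrain, while Eomes and Tbr1 lie far above the diagonal at more than 100 CPM in forebrain.

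Ranked by log2 difference among called genes of at least 5 CPM whose libraries separated in wild type and in knockout, the 12 genes highest in forebrain relative to midbrain included Gabrp, Vax1, 3110039M20Rik, Samd3, Eomes, Krt7, Neurod6, Tbr1, Cldn6, Gsx2 and Lhx8. Of these, Gabrp, Krt7 and Cldn6 are known from epithelia, and Eomes, Neurod6, Tbr1, Gsx2, Lhx8 and Vax1 encode transcription factors. Vax1, a homeobox gene of ventral forebrain, measured 14.4 and 16.7 CPM in forebrain and 0.0632 and 0 CPM in midbrain, a ratio of 439-fold (95% exact counting interval 78.3 to 17371).

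The 12 genes highest in midbrain relative to forebrain included En2, Foxa2, Evx2, Kcnk9, Nkx2-2os, Cartpt, Hes3, Prrxl1, Barhl1, 5730488B01Rik and C1ql4. Foxa2, which encodes a forkhead factor of the floor plate, had no count in forebrain and 19.9 and 22.4 CPM in midbrain, at least 91.2-fold higher. Evx2, a homeobox gene, likewise had none in forebrain and 15.3 and 12.5 CPM in midbrain, at least 59.9-fold higher. Kcnk9 encodes a potassium channel. It had none in forebrain and 7.08 and 8.55 CPM in midbrain, at least 33.7-fold higher. Cartpt, which encodes a neuropeptide precursor, measured 0.0677 and 0 CPM in forebrain and 8.47 and 5.75 CPM in midbrain, a ratio of 201-fold (95% exact counting interval 35.7 to 7993). For each of the genes given with values the forebrain libraries were at or near 0 and both midbrain libraries were well above the floor.

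Pallial transcription factors were higher in forebrain as a group. Of 26 listed genes, all tested, 22 were higher in forebrain and 3 were lower, with a median log2 difference of 1.55 against 0.0017 over all tested genes. Eomes and Tbr1, T-box genes of cortical intermediate progenitors and early cortical neurons, were among the most regional. Eomes measured 120.4 and 113 CPM in forebrain and 0.190 and 1.997 CPM in midbrain (log2 difference 6.86, SE 0.28). Tbr1 measured 149 and 113 CPM in forebrain and 0.696 and 3.35 CPM in midbrain (log2 difference 6.11, SE 0.28). Emx1, the paralogue of Emx2, measured 58.3 and 52.6 CPM in forebrain and 0.885 and 4.47 CPM in midbrain (log2 difference 4.47, SE 0.32). No forebrain library overlapped a midbrain library for these genes. Zinc-finger and DM-domain factors were also higher in forebrain. Fezf1 was 30.6-fold, Dmrt3 19.7-fold, Fezf2 16.6-fold and Dmrta1 11.3-fold higher in forebrain.

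Other pallial factors were shared by both tissues and differed by a smaller amount. Pax6, required for cortical and eye development, measured 151 and 151 CPM in forebrain and 71.0 and 62.9 CPM in midbrain (log2 difference 1.17, SE 0.073, adjusted p = 2.27e-07 in edgeR). Nr2e1, also called Tlx, measured 174 and 175 CPM in forebrain and 54.0 and 47.1 CPM in midbrain, Sp8 was 3.62-fold and Gli3 1.86-fold higher in forebrain. The 3 that were lower in forebrain were Bhlhe22 (log2 difference -1.76, SE 0.23), Neurog1 (log2 difference -0.39, SE 0.12) and Nr2f2 (log2 difference -0.27, SE 0.070). Neurog2, a proneural factor, was the one listed gene without a call. With midbrain replicate 1 left out, 21 genes were higher and 1 was lower, and Neurog1 (adjusted p = 0.243 in edgeR) and Nr2f2 (0.0777) lost their calls.

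Midbrain replicate 2 held more of several forebrain-restricted RNAs than midbrain replicate 1. Eomes was at 0.190 and 1.997 CPM, Emx1 at 0.885 and 4.47 CPM and Dmrt3 at 0.379 and 3.83 CPM in the 2 midbrain replicates. Of the 26 pallial factors, 19 had a larger value in midbrain replicate 2 than in replicate 1. That list also holds genes well counted in midbrain, such as Lhx2 and Pax6. The matching share over all tested genes was not counted. The part of this in the regional differences was not tested, and the fold changes of genes near the floor in midbrain rest on few counts.

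Among subpallial factors, 15 of 20 were higher in forebrain and 5 were lower (median log2 difference 1.53). The 4 listed Dlx genes (Dlx1, Dlx2, Dlx5 and Dlx6), which specify forebrain GABAergic neurons, were higher in forebrain, Dlx6 with a call lost without midbrain replicate 1 (adjusted p = 0.0543 in edgeR). Dlx3, a Dlx gene known from ectoderm and placodes, was the fifth tested and rested on few counts, at 1.56 and 1.24 CPM in forebrain and 0.569 and 0.160 CPM in midbrain (adjusted p = 0.0327 in edgeR). Its call was lost in the fit of all 8 libraries (adjusted p = 0.102), and its knockout libraries overlapped. Of the 5 tested Dlx genes, 4 were called without forebrain replicate 1, and 4 without midbrain replicate 2. Dlx2 measured 70.6 and 55.0 CPM in forebrain and 4.93 and 5.03 CPM in midbrain (log2 difference 3.66, SE 0.15), and Dlx1 measured 81.2 and 66.8 CPM in forebrain and 9.42 and 9.58 CPM in midbrain (log2 difference 2.96, SE 0.12). Gsx2, a homeobox gene of lateral ganglionic eminence progenitors, measured 21.1 and 13.8 CPM in forebrain and 0.506 and 0.319 CPM in midbrain (log2 difference 5.35, SE 0.35). Lhx8, a LIM homeobox gene of the medial ganglionic eminence, measured 4.54 and 6.34 CPM in forebrain and 0 and 0.319 CPM in midbrain (log2 difference 5.17, SE 0.62). The libraries of the tissues did not overlap for Dlx1, Dlx2, Gsx2 or Lhx8. Nkx2-1, the selector of the medial ganglionic eminence, differed by less, at 24.0 and 29.0 CPM in forebrain and 10.9 and 13.1 CPM in midbrain (2.21-fold).

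The 5 subpallial factors higher in midbrain are also used outside the forebrain. Gsx1 measured 2.44 and 2.32 CPM in forebrain and 15.4 and 9.74 CPM in midbrain (log2 difference -2.41, SE 0.27). Ebf1 was 5.12-fold and Nkx6-2 4.41-fold higher in midbrain. Zfp503 was 1.72-fold higher there.

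Hypothalamic, thalamic and eye factors were mostly higher in midbrain, although these territories belong to the forebrain. Several of the genes, such as Barhl1 and the Irx genes, are also known from midbrain. RNA of midbrain cells and RNA of bordering forebrain tissue in the midbrain libraries cannot be told apart here, and neither was tested. Of 28 listed genes, 21 were tested, 3 were higher and 16 lower in forebrain (median log2 difference -2.57). Dbx1, a homeobox gene of ventricular progenitors, measured 6.03 and 7.88 CPM in forebrain and 198 and 166 CPM in midbrain (log2 difference -4.72, SE 0.13, adjusted p = 3.56e-10 in edgeR). Barhl1, known from posterior hypothalamus and midbrain, measured 0.271 and 0.232 CPM in forebrain and 36.4 and 38.5 CPM in midbrain (log2 difference -7.16, SE 0.24). Tcf7l2, a thalamic factor and Wnt effector, measured 35.6 and 42.5 CPM in forebrain and 276 and 239.9 CPM in midbrain (log2 difference -2.73, SE 0.095). For none of the 3 did the tissues overlap. Nkx2-4, a hypothalamic gene, was at 0 and 0.0773 CPM in forebrain and 4.74 and 5.83 CPM in midbrain. Of the eye and hypothalamic genes that were not tested, Six6 was at 0.135 and 0.232 CPM, Rax at 0.610 and 0.232 CPM and Vax2 at 0 and 0 CPM in forebrain, each under 1 CPM. The forebrain libraries thus held few counts of these hypothalamic and eye markers. The genes higher in forebrain were Vax1, Fezf1 and Mitf, a pigment cell factor whose call was lost with any one of the 4 libraries left out (adjusted p of 0.0922 to 0.162 in edgeR).

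Midbrain-hindbrain patterning factors went the other way from pallial factors: of 19 listed and tested, 3 were higher and 16 lower in forebrain (median log2 difference -2.67). Cnpy1, a modulator of FGF signalling at the midbrain-hindbrain border, measured 1.96 and 1.62 CPM in forebrain and 149 and 160.4 CPM in midbrain (log2 difference -6.41, SE 0.12, adjusted p = 5.37e-11 in edgeR). Dmbx1, a homeobox gene of midbrain, measured 0.339 and 0.696 CPM in forebrain and 55.3 and 49.4 CPM in midbrain (log2 difference -6.67, SE 0.22). Pax7 and Pax3, dorsal midbrain factors, were 10.6-fold and 29.5-fold higher in midbrain. Otx2, a homeobox gene needed for both forebrain and midbrain, was well expressed in both and measured 44.4 and 59.4 CPM in forebrain and 279 and 253 CPM in midbrain, 5.15-fold higher in midbrain. Gbx2, a factor of anterior hindbrain that also marks thalamus, measured 0.881 and 2.16 CPM in forebrain and 10.2 and 8.79 CPM in midbrain. The homeobox genes Msx2 (3.07-fold), Msx1 (2.80-fold) and Meis2 (1.45-fold), were higher in forebrain.

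The most one-sided transcription factor list was that of midbrain neuron types. Of 30 listed genes 28 were tested, and 27 were lower and none higher in forebrain. The median log2 difference was -3.43, or -3.15 with genes at 0 in forebrain set to their bound. Tal2, required for midbrain GABAergic neurons, measured 1.76 and 2.24 CPM in forebrain and 198 and 162 CPM in midbrain (log2 difference -6.50, SE 0.15, adjusted p = 1.88e-10 in edgeR). Gata2, which selects the same fate, measured 3.25 and 2.55 CPM in forebrain and 38.5 and 36.7 CPM in midbrain, and Gata3 was 9.05-fold higher in midbrain. Foxa1, a floor plate and dopaminergic progenitor factor, measured 0.813 and 1.08 CPM in forebrain and 28.4 and 31.3 CPM in midbrain (log2 difference -4.98, SE 0.21). Pou4f1, also called Brn3a, a factor of red nucleus and tectal neurons, measured 1.02 and 2.63 CPM in forebrain and 55.5 and 49.9 CPM in midbrain (log2 difference -4.89, SE 0.23). Lhx1 measured 8.87 and 8.50 CPM in forebrain and 77.3 and 74.4 CPM in midbrain and Nkx2-2 measured 0.135 and 0.155 CPM in forebrain and 15.5 and 14.2 CPM in midbrain. The libraries of the tissues did not overlap for any of these genes. Smaller differences were seen for Lmx1a (2.66-fold) and Nr4a2 (1.36-fold), factors of dopaminergic neurons that the forebrain libraries also held. The call of Nr4a2 was lost without forebrain replicate 2 (adjusted p = 0.124 in edgeR) or midbrain replicate 2 (0.304).

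**Figure D2:**
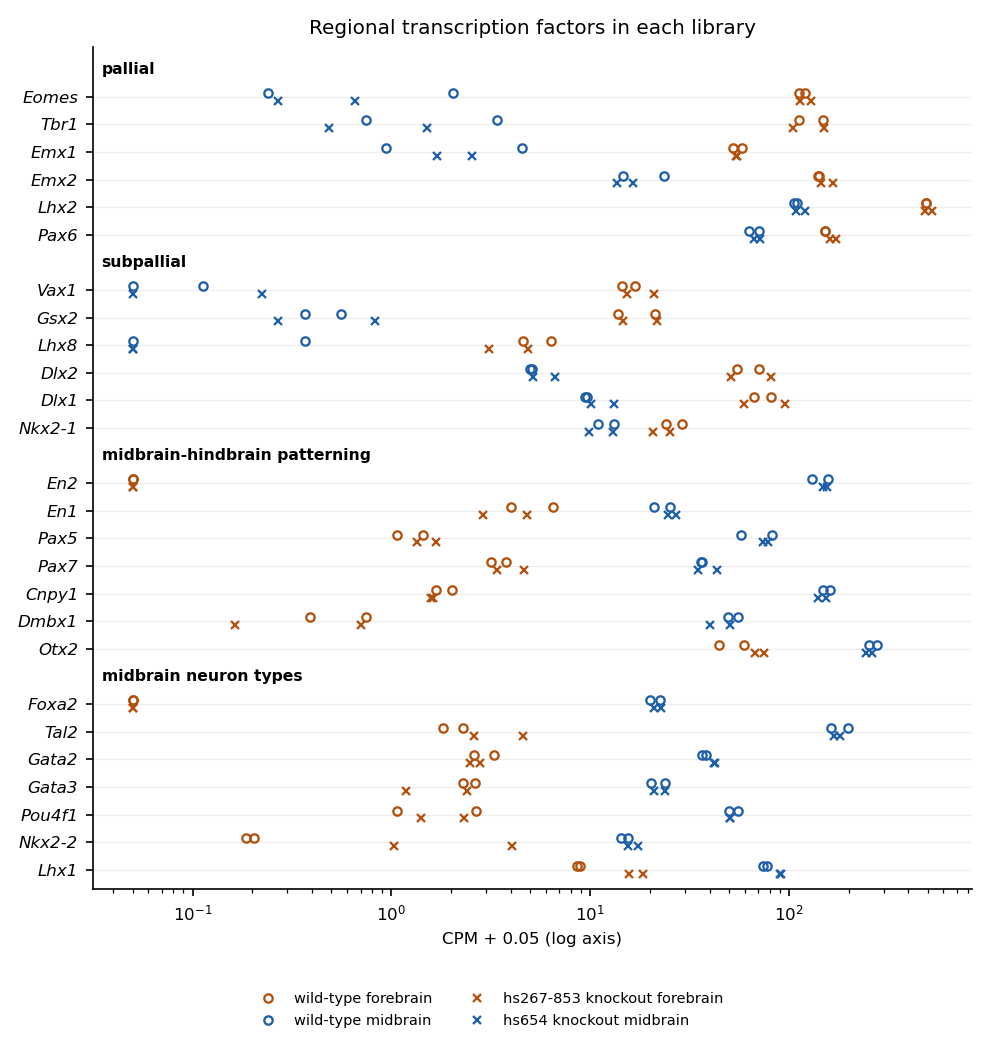
CPM plus 0.05 on a log axis for regional transcription factors, 1 point per library: circles are the 4 wild-type libraries and crosses the 4 knockout libraries, forebrain in orange and midbrain in blue. Every gene shown separates the tissues in wild type; Lhx2, Pax6, Nkx2-1 and Otx2 were present in both tissues, whereas En2 and Foxa2 had no count in any forebrain library.

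Homeobox and POU families divided between the tissues in different ways. Of the 11 tested LIM homeobox genes, 4 were higher in forebrain (Lhx8, Lhx2, Lhx6 and Isl1) and 7 in midbrain (Lhx4, Lhx1, Isl2, Lmx1a, Lhx9, Lhx5 and Lmx1b). Of 10 tested POU genes, 9 were higher in midbrain. Pou3f2, also called Brn2, measured 70.7 and 71.5 CPM in forebrain and 318 and 286 CPM in midbrain (log2 difference -2.09, SE 0.069), and Pou3f4 measured 45.8 and 38.5 CPM in forebrain and 207 and 195 CPM in midbrain (log2 difference -2.25, SE 0.084). Their relative Pou3f3 ran the other way by a small amount, at 422 and 409 CPM in forebrain and 344 and 349.6 CPM in midbrain (log2 difference 0.26, SE 0.053). In the Nkx family, Nkx2-1 and Nkx2-3 were higher in forebrain and 7 of 9 tested members were higher in midbrain. Of 6 Irx genes, 5 were higher in midbrain. Irx1 measured 0.745 and 2.01 CPM in forebrain and 73.1 and 77.9 CPM in midbrain (log2 difference -5.81, SE 0.21). The exception, Irx4, had no count in midbrain and 2.24 and 2.94 CPM in forebrain, at least 10.8-fold higher.

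Sox genes and Six3-related genes leaned towards forebrain. Of 17 tested Sox genes, 9 were higher and 3 lower in forebrain. The progenitor factor Sox2 measured 311 and 328 CPM in forebrain and 207 and 225 CPM in midbrain (log2 difference 0.57, SE 0.062), and Sox6 measured 143 and 149.6 CPM in forebrain and 45.9 and 42.0 CPM in midbrain (log2 difference 1.73, SE 0.075). Sox14, a factor of GABAergic neurons of thalamus and midbrain, was the strongest of the other direction, at 0.0677 and 0.386 CPM in forebrain and 12.2 and 10.7 CPM in midbrain (log2 difference -5.67, SE 0.41). Of 5 tested Six3-related genes, 4 were higher in forebrain. Six3, an anterior forebrain factor, measured 31.9 and 28.0 CPM in forebrain and 17.1 and 17.0 CPM in midbrain (1.76-fold). Six2, better known from head mesenchyme, measured 88.2 and 75.4 CPM in forebrain and 8.09 and 16.7 CPM in midbrain (6.77-fold). Forkhead genes were divided, with 10 of 33 tested higher and 8 lower in forebrain. Foxn4, a factor of GABAergic progenitors of the ventral midbrain and spinal cord, measured 0.203 and 0.232 CPM in forebrain and 16.8 and 17.6 CPM in midbrain (log2 difference -6.25, SE 0.30).

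Basic helix-loop-helix factors of neuronal differentiation were more often higher in midbrain, in 11 of 18 tested genes against 4 in forebrain. Bhlhe23 was the most regional of these, at 0.271 and 0.155 CPM in forebrain and 28.0 and 21.6 CPM in midbrain (log2 difference -6.78, SE 0.32). Nhlh2, expressed in newly born neurons, measured 52.9 and 45.8 CPM in forebrain and 167 and 165 CPM in midbrain (log2 difference -1.75, SE 0.078), and Hes5, a Notch effector, measured 114 and 104 CPM in forebrain and 222 and 204 CPM in midbrain (1.96-fold). In the opposite direction, the cortical neuron factors Neurod6 and Neurod2 were higher in forebrain. Neurod6 measured 8.20 and 3.48 CPM in forebrain and 0.126 and 0 CPM in midbrain, a ratio of 84.9-fold (95% exact counting interval 23.1 to 707). Neurod2 measured 15.4 and 6.72 CPM in forebrain and 0.696 and 0.559 CPM in midbrain (log2 difference 4.12, SE 0.46).

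Promoter windows of 4 regional genes are shown because each differed at least 4-fold between tissues, belongs to the lists of regulators or signals, and holds a core word of homeodomain binding sites. Each is the 250 bases before an annotated start site, 5′ to 3′ on the gene's strand, from RefSeq for GRCm38.p6. Where several start sites were listed for a gene, the first listed was used. Capitals mark TAATTA, the core shared by many homeodomain proteins, or TAATCC, the core known for Otx proteins. Both words were searched on both strands, and they share their first letters. The 4 genes were chosen after their values were seen.
Tbr1 (higher in forebrain), chr2:61804203-61804452, plus strand: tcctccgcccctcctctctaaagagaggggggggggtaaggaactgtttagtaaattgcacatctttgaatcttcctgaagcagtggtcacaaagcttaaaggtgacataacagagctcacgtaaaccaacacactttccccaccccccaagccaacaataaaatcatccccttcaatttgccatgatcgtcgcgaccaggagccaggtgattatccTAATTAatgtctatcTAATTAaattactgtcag
Wnt8b (higher in forebrain), chr19:44493222-44493471, plus strand: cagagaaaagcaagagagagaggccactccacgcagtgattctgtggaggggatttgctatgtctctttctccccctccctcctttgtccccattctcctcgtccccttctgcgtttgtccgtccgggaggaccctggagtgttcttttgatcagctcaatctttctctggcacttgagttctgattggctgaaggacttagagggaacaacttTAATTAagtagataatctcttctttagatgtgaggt
Otx2 (higher in midbrain), chr14:48667645-48667894, minus strand: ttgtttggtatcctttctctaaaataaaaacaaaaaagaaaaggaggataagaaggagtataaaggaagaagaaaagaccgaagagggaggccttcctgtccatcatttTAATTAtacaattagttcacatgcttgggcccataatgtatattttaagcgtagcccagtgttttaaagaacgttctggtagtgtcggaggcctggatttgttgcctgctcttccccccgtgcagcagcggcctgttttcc
Dbx1 (higher in midbrain), chr7:49636836-49637085, minus strand: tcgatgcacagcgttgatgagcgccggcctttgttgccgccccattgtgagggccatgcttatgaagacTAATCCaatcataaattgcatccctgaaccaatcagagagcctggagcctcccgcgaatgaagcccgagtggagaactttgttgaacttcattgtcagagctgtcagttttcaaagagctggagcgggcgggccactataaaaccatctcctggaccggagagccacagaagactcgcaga
Tbr1 held TAATTA at 2 places, beginning 33 and 18 bases before the start site used. Its window lies inside the annotated span of the gene, chr2:61802863-61814114, and so is not the sequence before the gene's first base. Wnt8b and Otx2 held TAATTA once, and Dbx1 held TAATCC once. The windows of Emx2, Lhx2, En1 and Pax5 held neither word. En2, the remaining marker, had no promoter in the RefSeq set used and was not searched.

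TAATTA was present in 4.90% of the windows of 27025 genes with a promoter in the RefSeq table and in 2.22% of those of 11664 tested genes. It was present in 3.76% of 133 genes called at least 4-fold higher in forebrain and in 3.35% of 269 called at least 4-fold higher in midbrain. TAATCC was present in 6.38%, 4.97%, 3.01% and 5.58% of the same sets. The shares are descriptions of these windows. Median GC content was 60.0% over tested genes, 57.6% in the forebrain set and 58.8% in the midbrain set, and its part in the shares was not tested.

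Sonic hedgehog, the ventral signal of the neural tube, and its target genes Ptch1, Hhip and Gli1 were higher in midbrain. Shh itself measured 3.18 and 5.02 CPM in forebrain and 48.9 and 56.3 CPM in midbrain (log2 difference -3.69, SE 0.17, adjusted p = 2.15e-08 in edgeR). The receptor and target Ptch1 measured 71.5 and 73.3 CPM in forebrain and 180.3 and 178 CPM in midbrain (2.48-fold), and the antagonist Hhip was 3.32-fold and the target Gli1 1.58-fold higher in midbrain. Of the 15 listed pathway genes, 8 were lower and 6 higher in forebrain. The 6 higher in forebrain were the co-receptors Gas1 (2.67-fold) and Cdon (1.49-fold), the transducers Gli3 (1.86-fold), Gli2 (1.36-fold) and Smo (1.16-fold), and the inhibitor Sufu (1.18-fold). Sufu lost its call without any one library but forebrain replicate 2 (adjusted p of 0.0502 to 0.138 in edgeR), and Smo without midbrain replicate 1 (0.143). Except for Gas1 and Gli3 these differences were under 1.5-fold.

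Wnt ligands, which pattern the dorsal midline and the midbrain-hindbrain border, were split by member. Of 26 tested ligands, antagonists and feedback genes, 12 were higher and 7 lower in forebrain (median log2 difference 0.36). Wnt8b, a ligand of the cortical hem, measured 101 and 124 CPM in forebrain and 12.1 and 28.9 CPM in midbrain (log2 difference 2.49, SE 0.25). Wnt3a, another hem ligand, measured 18.7 and 15.1 CPM in forebrain and 5.06 and 6.07 CPM in midbrain (3.06-fold), and Wnt7b measured 190.1 and 184 CPM in forebrain and 76.4 and 82.8 CPM in midbrain (2.36-fold). Wnt1, the ligand of the midbrain-hindbrain border, measured 0.406 and 0.696 CPM in forebrain and 15.4 and 16.9 CPM in midbrain (log2 difference -4.87, SE 0.28). Wnt3 and Wnt5a were 5.35-fold and 2.14-fold higher in midbrain. The secreted Wnt inhibitor Sfrp1 measured 617 and 638 CPM in forebrain and 113 and 144 CPM in midbrain (log2 difference 2.29, SE 0.091), and the R-spondins, which enhance Wnt signals, were higher in forebrain in 3 members (Rspo1 4.13-fold, Rspo3 3.17-fold, Rspo2 2.34-fold). With 1 library left out, the median log2 difference of the list ranged from 0.29 (without midbrain replicate 1) to 0.54 (without midbrain replicate 2). The general Wnt targets Axin2 and Lef1 were 1.19-fold and 1.18-fold higher in midbrain. Axin2 lost its call without forebrain replicate 1 (adjusted p = 0.0653 in edgeR) or midbrain replicate 2 (0.0802), and Lef1 without any one library but forebrain replicate 1 (0.0879 to 0.116).

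BMP and TGF-beta genes were evenly divided, with 6 higher and 6 lower in forebrain of 23 tested. Bmp4, a dorsal midline ligand, measured 23.7 and 20.9 CPM in forebrain and 8.73 and 8.31 CPM in midbrain (2.62-fold higher in forebrain). Gdf7, a roof plate ligand, measured 1.96 and 2.01 CPM in forebrain and 4.93 and 6.15 CPM in midbrain (2.77-fold higher in midbrain). The inhibitor of DNA binding Id4 measured 539 and 534 CPM in forebrain and 109.9 and 114 CPM in midbrain (log2 difference 2.26, SE 0.057), whereas Id2 and Id3 were 1.64-fold and 1.17-fold higher in midbrain. Id3 lost its call without forebrain replicate 1 (adjusted p = 0.0859 in edgeR) or midbrain replicate 2 (0.0854). The activin antagonist Fst was 3.25-fold higher in midbrain.

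FGF genes moved in both directions. Of 16 tested signalling ligands and feedback genes, 4 were higher and 1 was lower in forebrain, and 11 had no call, a share near that of all tested genes. Of 11 tested genes of the whole Fgf family, without the feedback genes, 1 was higher and 4 were lower in forebrain (45.5% called against 31.4% of all tested genes, median log2 difference -0.38). DESeq2 called none of the 11 higher and 2 lower, and with 1 library left out 0 to 2 Fgf genes were higher (0 without midbrain replicate 1) and 2 to 4 lower (2 without midbrain replicate 2). Fgf8, secreted by both the anterior forebrain and the midbrain-hindbrain border, measured 8.40 and 5.64 CPM in forebrain and 3.54 and 6.23 CPM in midbrain and had no call (adjusted p = 0.183 in edgeR). Fgf17 measured 24.0 and 29.1 CPM in forebrain and 8.28 and 20.0 CPM in midbrain (1.91-fold higher in forebrain), with its midbrain replicates far apart, and lost its call without midbrain replicate 1 (adjusted p = 0.113 in edgeR). Fgf15 was 1.78-fold higher in midbrain, a call that DESeq2 did not make (adjusted p = 0.0560). The others lower in forebrain were Fgf11, Fgf12 and Fgf14, known as intracellular members of the family rather than secreted signals. Fgf12 measured 1.63 and 2.55 CPM in forebrain and 5.44 and 5.19 CPM in midbrain (2.56-fold higher in midbrain), and Fgf11 (1.71-fold) lost its call without midbrain replicate 2 (adjusted p = 0.121 in edgeR). The feedback genes Spry1 (1.88-fold), Dusp6 (1.71-fold) and Etv5 (1.63-fold) were higher in forebrain. With midbrain replicate 1 left out, 3 of the 16 genes were higher and 3 lower in forebrain, and none of the 16 was called when a change of at least 1.5-fold was tested for.

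Retinoic acid genes and Notch ligands held a few regional members. The share called was 56.25% of tested retinoic acid genes and 41.7% of Notch ligands and modulators, against 31.4% of all tested genes. Of 16 tested retinoic acid genes, 6 were higher and 3 lower in forebrain. Aldh1a3, a synthesizing enzyme, measured 2.37 and 1.55 CPM in forebrain and 0.126 and 0.160 CPM in midbrain (log2 difference 3.72, SE 0.63), and Cyp26b1, a degrading enzyme, measured 6.10 and 6.49 CPM in forebrain and 20.3 and 29.3 CPM in midbrain (log2 difference -1.97, SE 0.20). Crabp1, a binding protein, measured 63.1 and 70.9 CPM in forebrain and 210.2 and 239 CPM in midbrain (3.36-fold higher in midbrain). Of 12 Notch ligands and modulators, 4 were higher in midbrain, Dll3 (2.49-fold), Jag1 (2.18-fold), Dner (1.49-fold) and Nrarp (1.31-fold), and Dlk1 was higher in forebrain (1.51-fold).

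Axon guidance ligands separated into a midbrain and a forebrain set, with 10 of 25 lower and 6 higher in forebrain. Slit1, a repellent, measured 10.4 and 10.7 CPM in forebrain and 59.4 and 59.7 CPM in midbrain (log2 difference -2.50, SE 0.11), and Draxin, an antagonist of Wnt and netrin signals, measured 32.8 and 34.2 CPM in forebrain and 157 and 148 CPM in midbrain (log2 difference -2.19, SE 0.075). Ntn1, the netrin of the floor plate, measured 70.0 and 60.3 CPM in forebrain and 199 and 216 CPM in midbrain (3.18-fold higher in midbrain). Sema5a measured 124 and 98.1 CPM in forebrain and 23.2 and 23.2 CPM in midbrain (log2 difference 2.26, SE 0.11) and Sema3a was 3.25-fold higher in forebrain. Ephrin-B genes were on the forebrain side, with Efnb2 at 288 and 241 CPM in forebrain and 55.9 and 71.0 CPM in midbrain (4.19-fold) and Efnb1 2.97-fold higher. The ephrin-A genes Efna2 and Efna5, whose proteins map retinal axons in the tectum, were 1.84-fold and 1.78-fold higher in midbrain.

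Peptide and growth factor genes were equal in number of calls, 7 in each direction of 21 tested, but all 6 neuropeptide genes with a call were higher in midbrain. Sst, which encodes somatostatin, measured 0.677 and 0.232 CPM in forebrain and 12.6 and 11.8 CPM in midbrain (log2 difference -4.68, SE 0.34). Penk, which encodes the enkephalin precursor, measured 3.25 and 2.16 CPM in forebrain and 13.2 and 29.1 CPM in midbrain (log2 difference -2.93, SE 0.36), and Trh measured 0.135 and 0.155 CPM in forebrain and 4.36 and 5.75 CPM in midbrain (log2 difference -5.04, SE 0.49). Adcyap1, Cck and Tac1, also peptide precursors, and the growth factor gene Ptn were higher in midbrain. The 7 genes higher in forebrain were the growth factors Pdgfa (2.43-fold), Igf1, Kitl, Pdgfc, Mdk, Nrg1 and Igf2. Without midbrain replicate 1, the calls of Tac1 (adjusted p = 0.347 in edgeR), Cck (0.0679), Igf2 (0.0845) and Nrg1 (0.0583) were lost. Without forebrain replicate 2 the call of Tac1 was lost (0.0568), and Nrg1 lost it without forebrain replicate 1 (0.218) or midbrain replicate 2 (0.139).

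Receptors for guidance cues were higher in midbrain in 17 of 32 tested genes and higher in forebrain in 8. Epha8, an ephrin receptor of the superior colliculus, measured 0.542 and 2.16 CPM in forebrain and 37.0 and 30.7 CPM in midbrain (log2 difference -4.69, SE 0.31, adjusted p = 3.45e-07 in edgeR). Robo3, which controls midline crossing, measured 32.5 and 27.8 CPM in forebrain and 112 and 96.1 CPM in midbrain (3.44-fold), and the netrin receptor Dcc measured 120.2 and 121 CPM in forebrain and 251 and 245 CPM in midbrain (2.06-fold). Epha3 ran the other way, at 169 and 154 CPM in forebrain and 68.4 and 64.0 CPM in midbrain (2.43-fold higher in forebrain), followed by Epha4 (1.64-fold) and Robo2 (1.53-fold). Within the Robo genes, Robo1 was higher in midbrain (1.87-fold) and Robo2 higher in forebrain.

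Frizzled receptors for Wnt ligands were mostly higher in forebrain, 7 of 10 against 2. Fzd8 measured 139 and 119.7 CPM in forebrain and 19.8 and 17.3 CPM in midbrain (log2 difference 2.79, SE 0.10), and Fzd5 was 2.77-fold, Fzd7 2.201-fold and Fzd2 1.74-fold higher in forebrain. Fzd10 was the main exception, at 31.4 and 29.4 CPM in forebrain and 193 and 179 CPM in midbrain (log2 difference -2.61, SE 0.077). Fzd3 was 1.46-fold higher in midbrain. The R-spondin receptor Lgr5 measured 0.271 and 0.618 CPM in forebrain and 11.1 and 9.90 CPM in midbrain (log2 difference -4.57, SE 0.34), higher in midbrain, while its ligands Rspo1 to Rspo3 were higher in forebrain.

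Growth factor and morphogen receptors together gave 22 higher and 17 lower in forebrain of 55 tested. On the midbrain side, Ret, the signalling receptor for GDNF, measured 0.677 and 0.232 CPM in forebrain and 5.25 and 6.15 CPM in midbrain (log2 difference -3.58, SE 0.42), and its co-receptor Gfra1 measured 15.0 and 11.7 CPM in forebrain and 59.4 and 64.4 CPM in midbrain (log2 difference -2.20, SE 0.12). Erbb4, a neuregulin receptor, measured 14.4 and 17.5 CPM in forebrain and 77.7 and 66.9 CPM in midbrain (4.55-fold), and the chemokine receptor Cxcr4 was 3.16-fold higher in midbrain. On the forebrain side, Ror2 measured 60.9 and 59.1 CPM in forebrain and 16.1 and 22.5 CPM in midbrain (3.14-fold), Bmpr1b was 2.44-fold and Fgfr1 1.41-fold higher.

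Transmitter receptors were more often higher in midbrain than in forebrain in each of the 4 classes examined, but the share called varied. It was 78.3% for glutamate, 70.6% for GABA and glycine and 50% for acetylcholine receptors. For monoamine, peptide and purine receptors it was 34.8%, near the 31.4% of all tested genes. Of 23 tested glutamate receptor genes, 16 were lower and 2 higher in forebrain (median log2 difference -1.42). The metabotropic receptor genes Grm2 and Grm3 were among the most regional. Grm2 measured 2.37 and 2.09 CPM in forebrain and 17.4 and 18.1 CPM in midbrain (log2 difference -2.98, SE 0.20). Grm3 measured 1.08 and 0.155 CPM in forebrain and 10.5 and 10.1 CPM in midbrain (log2 difference -3.98, SE 0.42). The AMPA receptor subunit gene Gria4 measured 8.54 and 8.50 CPM in forebrain and 27.6 and 28.4 CPM in midbrain (3.28-fold), and the NMDA receptor subunit genes Grin1 and Grin2b were 4.88-fold and 3.68-fold higher in midbrain. The kainate receptor subunit gene Grik3 was 1.44-fold higher in forebrain.

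GABA and glycine receptor genes gave 10 lower and 2 higher in forebrain of 17 tested (median log2 difference -0.97). Gabrb2, a subunit gene of the GABA-A receptor, measured 12.9 and 13.1 CPM in forebrain and 53.5 and 50.4 CPM in midbrain (log2 difference -2.003, SE 0.11). Gabra3 (1.48-fold) and the glycine receptor gene Glrb (1.46-fold) were higher in forebrain. Gabra3 lost its call with any one library left out (adjusted p of 0.0740 to 0.234 in edgeR), and Glrb with any but forebrain replicate 1 (0.0891 to 0.104). By DESeq2 neither was called (adjusted p of 0.190 and 0.111), which left none of the 17 higher in forebrain. Gabrp, counted in a family of GABA-A subunits, is described with the epithelial genes. Of 8 tested acetylcholine receptor genes, 4 were higher in midbrain and none in forebrain. Chrna5 measured 1.15 and 1.55 CPM in forebrain and 13.8 and 12.8 CPM in midbrain (log2 difference -3.30, SE 0.24), and Chrna4 measured 19.4 and 15.5 CPM in forebrain and 60.3 and 56.6 CPM in midbrain (3.35-fold). Of 46 listed receptors for monoamines, peptides and purines, 23 were tested, and 7 were lower and 1 was higher in forebrain (median log2 difference -0.37). The other 15 tested had no call. Adra1a, an alpha-1 adrenergic receptor gene, measured 1.96 and 1.47 CPM in forebrain and 17.7 and 18.2 CPM in midbrain (log2 difference -3.37, SE 0.21), and Adra2a, an alpha-2 receptor gene, ran the other way at 19.1 and 18.0 CPM in forebrain and 8.03 and 9.66 CPM in midbrain (2.11-fold).

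Genes common to all neurons were higher in midbrain almost throughout. Of 30 listed and tested, 29 were lower in forebrain and 1 was higher, with a median log2 difference of -0.98. The neurofilament gene Nefl measured 13.1 and 11.52 CPM in forebrain and 199 and 197 CPM in midbrain (log2 difference -4.002, SE 0.085, adjusted p = 9.53e-11 in edgeR), and Nefm measured 33.1 and 20.8 CPM in forebrain and 229 and 238 CPM in midbrain (8.60-fold). Mapt, which encodes tau, measured 42.8 and 32.4 CPM in forebrain and 155 and 153 CPM in midbrain (4.08-fold). The neuronal tubulin Tubb3 measured 622 and 531 CPM in forebrain and 1019.9 and 955 CPM in midbrain (1.71-fold), and the growth cone protein gene Gap43 was 3.50-fold higher in midbrain. Isl1, which also marks forming striatum, was the one listed gene higher in forebrain (1.47-fold), a call lost without midbrain replicate 1 (adjusted p = 0.179 in edgeR). Most transmitter receptors with a call, and midbrain neuron-type factors, moved in the same direction as these pan-neuronal genes, whose part in the receptor values was not tested.

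Cell cycle genes were slightly higher in forebrain. Of 29 tested, 23 were higher and 1 was lower, and the median log2 difference was 0.31. The replication licensing gene Mcm3 measured 301 and 311 CPM in forebrain and 213 and 219.8 CPM in midbrain (1.42-fold), and Ccne1, the gene for cyclin E1, measured 43.6 and 48.7 CPM in forebrain and 25.1 and 26.1 CPM in midbrain (1.80-fold). Plk1, a mitotic kinase, was 1.45-fold higher. The list also holds inhibitors of cell cycle progression. Cdkn1a, one of them, measured 15.8 and 16.7 CPM in forebrain and 10.1 and 7.43 CPM in midbrain (1.83-fold higher in forebrain). Cdkn1c, another, was the one gene lower in forebrain, at 261 and 232 CPM in forebrain and 545 and 554 CPM in midbrain (2.23-fold higher in midbrain). When a change of at least 1.5-fold was tested for, 1 gene of the list was higher (Ccne1) and 1 was lower (Cdkn1c). Progenitor genes were divided, 9 higher and 7 lower in forebrain of 22. Ptprz1, a radial glia phosphatase, measured 326 and 315 CPM in forebrain and 163 and 138 CPM in midbrain (2.13-fold higher in forebrain), and Hes1 was 2.42-fold higher, while Fabp7 (2.03-fold) and Nes (1.54-fold), also radial glia genes, were higher in midbrain.

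**Figure D3:**
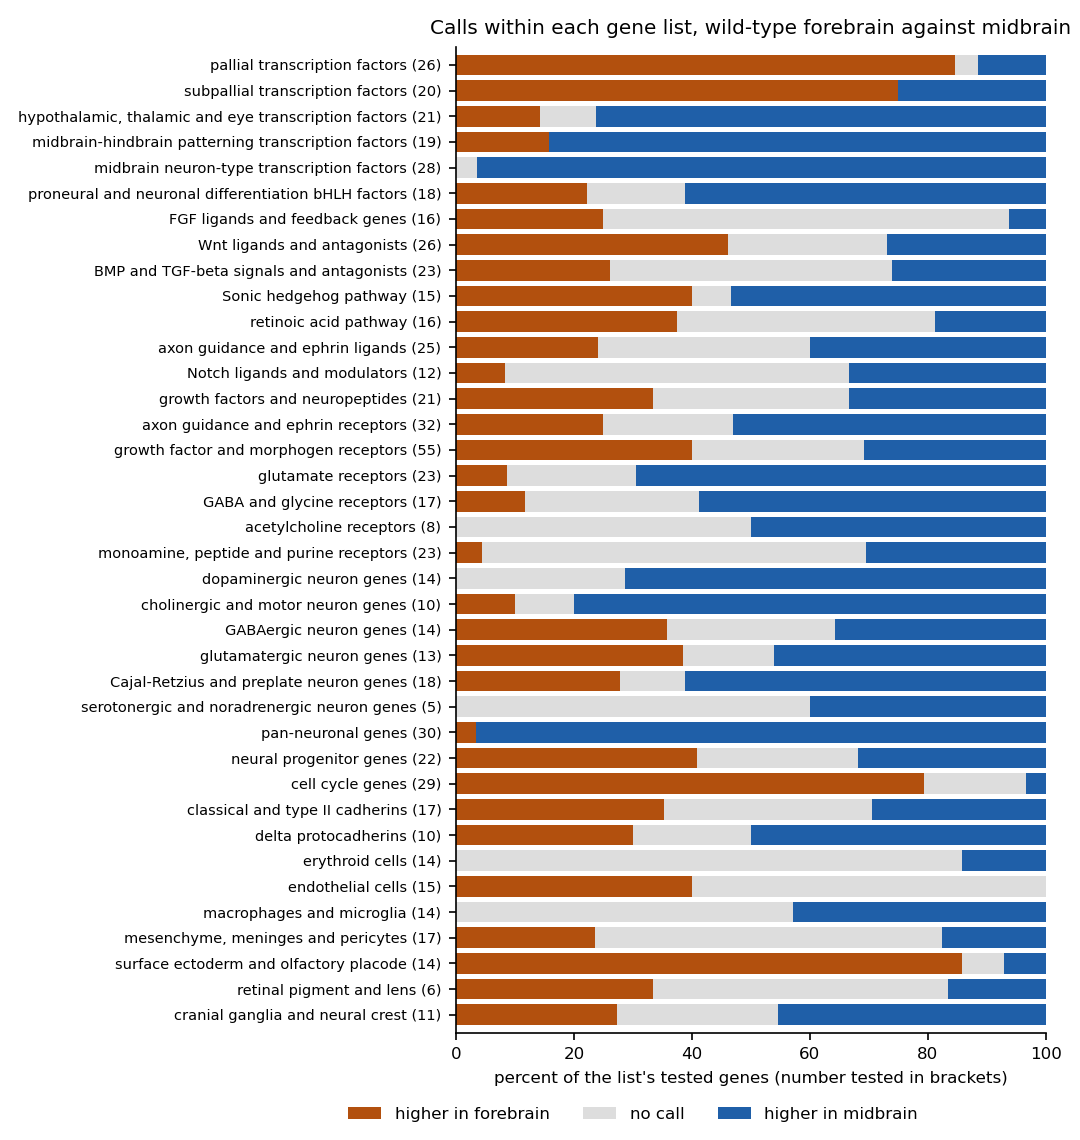
Share of the tested genes of each list that were called higher in forebrain (orange), higher in midbrain (blue) or not called (grey), with the number tested in brackets. Pallial and subpallial factors, cell cycle genes and surface ectoderm genes lie mainly on the forebrain side. Midbrain factors, pan-neuronal genes and glutamate, GABA and glycine receptors lie mainly on the midbrain side. Over all 15022 tested genes the shares were 15.1% and 16.2%.

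GABAergic regulators divided by tissue more than the enzymes of GABA synthesis did. Of 14 listed genes, 5 were higher in forebrain, 4 of them Dlx genes, and 5 in midbrain (Tal2, Sox14, Gata2, Gata3 and Gad1). Dlx5, one of the Dlx genes higher in forebrain, measured 19.2 and 15.8 CPM in forebrain and 2.28 and 2.40 CPM in midbrain (log2 difference 2.91, SE 0.21). Gad1, which encodes an enzyme of GABA synthesis, measured 15.8 and 13.7 CPM in forebrain and 27.4 and 27.5 CPM in midbrain (1.86-fold higher in midbrain). Gad2, which encodes the other such enzyme, measured 40.0 and 29.2 CPM in forebrain and 30.1 and 31.5 CPM in midbrain and had no call. The shared enzymes thus differed by under 2-fold or had no call, whereas Tal2 and Dlx2 differed by 90.3-fold and 12.6-fold in opposite directions.

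Glutamatergic genes divided in the same manner, 5 higher and 6 lower in forebrain of 13. The vesicular transporter Slc17a7, typical of cortex, measured 11.2 and 8.42 CPM in forebrain and 1.202 and 0.879 CPM in midbrain (log2 difference 3.21, SE 0.30). Slc17a6, the transporter of most midbrain and diencephalic neurons, measured 46.0 and 38.3 CPM in forebrain and 86.3 and 73.1 CPM in midbrain (1.89-fold higher in midbrain), and Slc17a8 was 12.1-fold higher there. Slc17a6 was the most counted of the 3 in both tissues, though levels of different genes are not corrected for length.

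Among Cajal-Retzius and preplate genes, 5 were higher and 11 lower in forebrain of 18. Trp73 and Calb2, genes of hem-derived Cajal-Retzius cells, were on the forebrain side, with Trp73 at 24.9 and 21.9 CPM in forebrain and 0.443 and 2.40 CPM in midbrain (log2 difference 4.14, SE 0.37) and Calb2 at 16.9 and 11.4 CPM in forebrain and 0.949 and 0.559 CPM in midbrain (log2 difference 4.18, SE 0.32). Reln, the product these cells are known for, measured 62.5 and 52.2 CPM in forebrain and 53.3 and 47.8 CPM in midbrain and had no call. Lhx1, Ebf3 (6.30-fold) and Nhlh2, used by many early neurons, were on the midbrain side.

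Dopaminergic genes were higher in midbrain in 10 of 14 tested and higher in forebrain in none (median log2 difference -1.77). Ddc, the decarboxylase of monoamine synthesis, measured 2.37 and 2.40 CPM in forebrain and 15.9 and 17.4 CPM in midbrain (log2 difference -2.80, SE 0.20). Th, the rate-limiting enzyme of dopamine synthesis, measured 8.67 and 5.41 CPM in forebrain and 4.74 and 4.47 CPM in midbrain and had no call (adjusted p = 0.0943 in edgeR). The mature transporter Slc6a3 was at 0.203 and 0.232 CPM in forebrain and 0.0632 and 0.319 CPM in midbrain and was not tested. Cholinergic and motor neuron genes were higher in midbrain in 8 of 10 tested. Isl2 measured 0.474 and 0.541 CPM in forebrain and 3.54 and 4.15 CPM in midbrain (log2 difference -2.90, SE 0.40), the choline transporter Slc5a7 was 3.53-fold higher with a call lost without forebrain replicate 2 (adjusted p = 0.0654 in edgeR) or midbrain replicate 2 (0.144), and Prph, a neurofilament-like gene of motor and sensory neurons, measured 0.135 and 0.309 CPM in forebrain and 3.29 and 4.07 CPM in midbrain (16.3-fold). Chat and Slc18a3, which define cholinergic transmission, had few counts in both tissues, with Slc18a3 at 0.0677 and 0.0773 CPM in forebrain and 0.569 and 1.04 CPM in midbrain. Of 5 tested serotonergic and noradrenergic genes, 2 were higher in midbrain, among them Gata3 (40% called, against 31.4% of all tested genes).

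**Figure D4:**
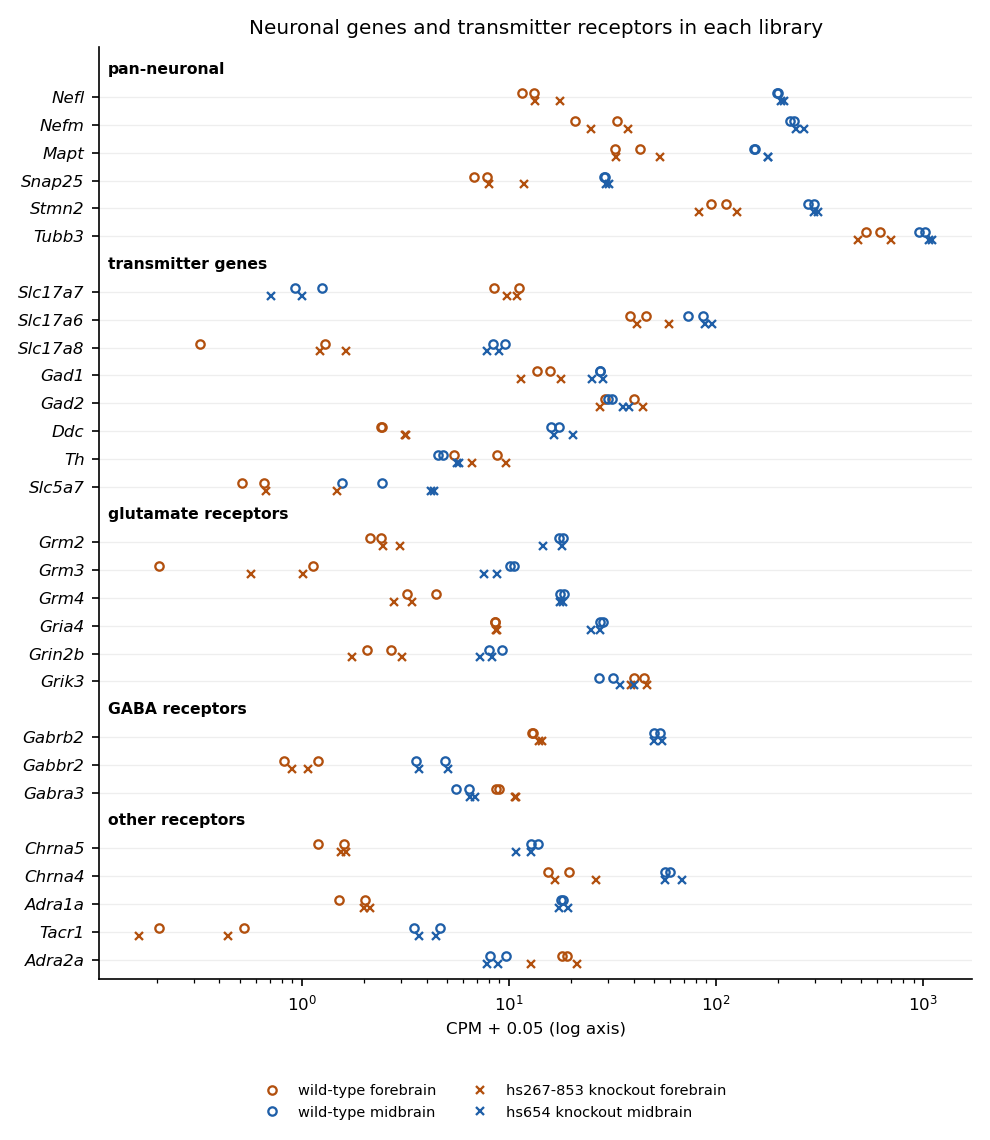
CPM plus 0.05 on a log axis for pan-neuronal genes, transmitter genes and receptors, 1 point per library: circles are wild-type and crosses knockout libraries, forebrain in orange and midbrain in blue. Slc17a7, Grik3, Gabra3 and Adra2a were higher in wild-type forebrain and Gad2 and Th had no call, while the other genes shown were higher in wild-type midbrain.

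Adhesion genes gave forebrain and midbrain sets of similar size. Of 17 tested cadherins, 6 were higher and 5 lower in forebrain. Cdh4 measured 70.8 and 67.2 CPM in forebrain and 33.8 and 33.9 CPM in midbrain (2.04-fold) and Cdh6 65.3 and 64.8 CPM in forebrain and 32.1 and 35.9 CPM in midbrain (1.92-fold), both higher in forebrain. Cdh8 measured 18.2 and 16.2 CPM in forebrain and 47.6 and 40.5 CPM in midbrain (2.57-fold higher in midbrain). Among delta protocadherins, 3 of 10 were higher and 5 lower in forebrain, or 2 and 2 without forebrain replicate 2 and 2 and 3 without midbrain replicate 2. Pcdh19 measured 131 and 118 CPM in forebrain and 19.7 and 18.1 CPM in midbrain (log2 difference 2.72, SE 0.091). Pcdh8 measured 12.2 and 11.2 CPM in forebrain and 94.2 and 85.7 CPM in midbrain (log2 difference -2.94, SE 0.10).

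Genes of tissues that border the brain also differed and are given beside the neural results. Of 14 tested surface ectoderm genes, 12 were higher in forebrain and 1, Ebf2, was lower. Krt8, an epithelial keratin gene, measured 17.7 and 10.7 CPM in forebrain and 1.52 and 1.84 CPM in midbrain (log2 difference 3.09, SE 0.30), and Trp63, a regulator of stratified epithelium, measured 6.84 and 3.48 CPM in forebrain and 0.190 and 0 CPM in midbrain, a ratio of 49.8-fold (95% exact counting interval 16.7 to 244). Gabrp measured 29.3 and 18.0 CPM in forebrain and 0 and 0 CPM in midbrain, at least 98.8-fold higher in forebrain. The 16 listed genes summed to 121 and 99.9 CPM in forebrain and 91.7 and 90.2 CPM in midbrain, of which Ebf2, also a neuronal gene, made up 75.1 and 77.3 CPM in midbrain. Of 17 mesenchyme, meninges and pericyte genes, 4 were higher in forebrain, among them Prrx1 at 126 and 114 CPM in forebrain and 23.7 and 33.8 CPM in midbrain (4.20-fold), Alx4 (4.14-fold) and Twist1 (3.62-fold), factors of head mesenchyme, and 3 were lower. With forebrain replicate 2 or midbrain replicate 2 left out, 8 were higher and 3 lower. With all 4 libraries 41.2% of that list was called, against 31.4% of all tested genes. The summed level of that list was 2538 and 2138 CPM in forebrain and 1745 and 2317 CPM in midbrain. Their part in the difference of Six2 and other genes shared with head tissue was not tested.

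Blood, vessel and sex-linked genes were read as checks. The share called was 40% of endothelial, 42.9% of macrophage and 14.3% of erythroid genes, against 31.4% of all tested genes. Of 15 endothelial genes, 6 were higher in forebrain and none was lower, and 1 was higher with midbrain replicate 1 left out; their summed level was 506 and 492 CPM in forebrain against 367 and 456 CPM in midbrain. Of 14 macrophage genes, 6 were higher in midbrain, or 3 without forebrain replicate 2 or midbrain replicate 2, with sums of 80.6 and 62.6 CPM in forebrain and 105 and 125 CPM in midbrain. Of 14 erythroid genes, 2 had a call, Hbb-b1 and Hbb-bs, whose counts were identical in every library, and the sum was highest in midbrain replicate 1 at 8595 CPM against 4521 to 5880 CPM in the other 3 wild-type libraries. Without midbrain replicate 1, 5 erythroid genes were higher in forebrain and none lower, and without midbrain replicate 2 none was higher and 10 were lower. Sex-linked transcripts differed between the pools. Y-linked Kdm5d measured 0 and 19.6 CPM in forebrain and 26.9 and 57.7 CPM in midbrain, so that the forebrain pools differed from each other, and X-linked Xist measured 2964 and 2304 CPM in forebrain and 2325 and 856 CPM in midbrain. The call of Kdm5d was lost without midbrain replicate 2 (adjusted p = 0.232 in edgeR) and by DESeq2 (0.734). Kdm5d was below both midbrain pools in both forebrain pools, while Xist overlapped between the tissues. The sex makeup of the pools therefore cannot be told apart from the replicate or, in part, from the tissue.

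The knockout libraries served as a second, separate set of the same 2 tissues. Between knockout forebrain and knockout midbrain, 3974 of 14849 genes were called (26.8%). Of the 4713 genes called in wild type, 4635 were tested in the knockout libraries, and 4563 of these (98.4%) had a difference of the same sign. Called in the same direction in both sets were 3159 genes, 67.0% of the wild-type calls and 79.5% of the knockout calls, and none was called in opposite directions. The 2 sets share no library, but the knockout libraries carry deletions and do not repeat the wild-type groups. Midbrain factors such as Tal2 (knockout log2 difference -5.64), forebrain factors such as Tbr1 (6.97) and pan-neuronal genes such as Nefl (-3.75) had differences of similar size in both. The regional difference itself differed between knockout and wild type in 1 of 15383 genes (0.0065%) by edgeR's interaction test. Epithelial genes did not repeat evenly: Gabrp measured 0.679 and 26.6 CPM in knockout forebrain and 0.0864 and 0 CPM in knockout midbrain, and knockout forebrain replicate 1 held 52.5 CPM of the surface ectoderm list against 121 CPM in replicate 2.

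**Figure D5:**
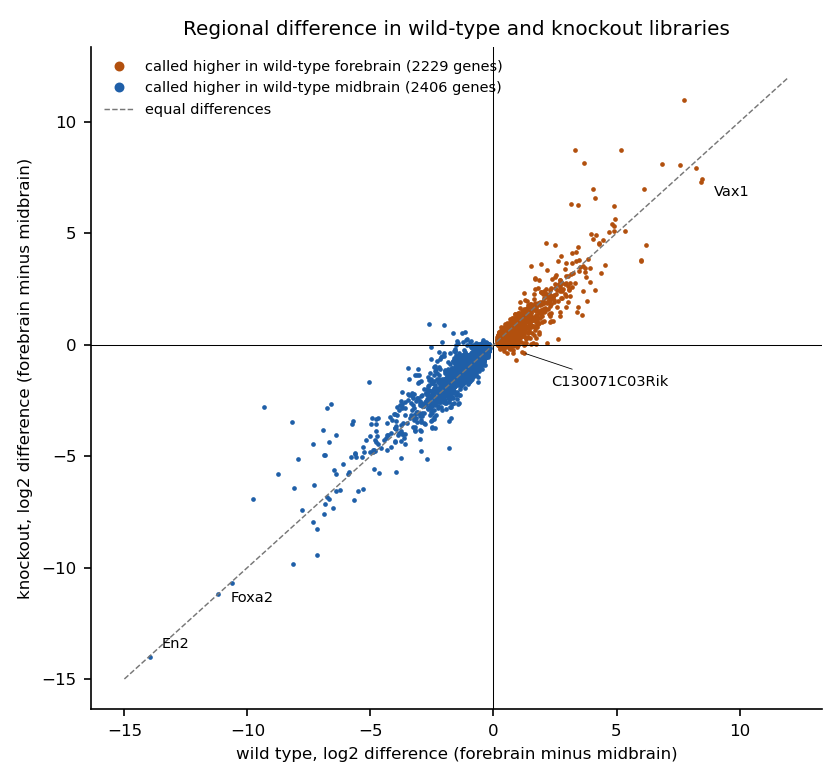
Log2 difference between forebrain and midbrain in wild-type (horizontal) and knockout libraries (vertical) for the 4635 genes called in wild type and tested in both, with a dashed line of equal differences. Most genes lie near the line, and 98.4% have the same sign in both sets.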

How the data were processed

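RNA-seq counts per gene symbol were deposited by the authors as 1 table per library; per the submitters' processing notes, STAR, HTSeq and DESeq2 were used with build mm10, without roles or versions, and the annotation and strand setting are not given in the sources used here. The 5 rows naming no gene were removed. Of the reads counted as in genes, in no feature or ambiguous, 40.7% to 44.1% lay in genes and 55.4% to 58.9% in no feature. Counts of the 4 wild-type libraries were filtered (filterByExpr), scaled by TMM and tested with edgeR 4.0.16 (quasi-likelihood, two-sided, Benjamini-Hochberg, threshold 0.05; R 4.3.3), after the script had been tested on simulated data. The knockout libraries were fitted separately, and all 8 together for the interaction. DESeq2 1.42.0, limma 3.58.1 and the settings of the closing section were alternatives.

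Members and gene lists (40 lists, 27 families) were chosen with earlier results of these data known. Named genes were the 5 markers, the 12 largest differences in each direction (at least 5 CPM, libraries separated in wild type and knockout), up to 4 called members of each list with at least 1 CPM, and other list members. Counting without strand cannot separate overlapping genes, and Hbb-b1 and Hbb-bs share counts. Replicate numbers did not pair the libraries: deviations of same-numbered libraries correlated at -0.0119. Promoters and coordinates came from RefSeq GRCm38.p6, where 14947 tested symbols (99.5%) were found. Some genes within these rules are not reported here.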

Additional observations from a re-analysis of the deposited data

Results flagged for a closer look

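The regional difference of C130071C03Rik, a noncoding transcript on chr13:83721381-83741308, differed between the knockout and the wild-type libraries, in a test of the difference itself. It measured 283 and 295 CPM in wild-type forebrain and 136 and 124 CPM in wild-type midbrain, against 121 and 88.7 CPM in forebrain of hs267-853 knockouts and 140 and 127 CPM in midbrain of hs654 knockouts. The log2 difference between forebrain and midbrain was 1.15 in wild type and -0.35 in the knockout libraries (adjusted p = 0.0703 in edgeR for the latter), and the change between them was -1.49 (SE 0.157, adjusted p = 0.00611 in edgeR's interaction test over 15383 genes). The forebrain libraries separated by genotype, whereas the midbrain libraries overlapped. The change was -1.44 without midbrain hs654 knockout replicate 1 (adjusted p = 0.0582) and -1.55 without replicate 2 (adjusted p = 0.0640), and had a call in edgeR without any one of the other 6 libraries.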

How the results depend on the processing

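RLE and upper-quartile scaling, no filter on low counts, a mean of at least 50 counts, DESeq2, limma-voom and a fit of all 8 libraries called 3476 to 5315 genes against 4713, and no called gene changed sign under any setting run. Testing for a change of at least 1.5-fold gave 1181 genes, 388 higher and 793 lower in forebrain, so that 32.9% were higher in forebrain against 48.3%. With 1 wild-type library left out, where the lone library is assumed to vary like the other tissue, 3151 to 4131 genes were called, of which 1429 to 1992 were higher and 1722 to 2222 lower in forebrain; the lowest counts were without midbrain replicate 1. With the replicate block 4274 genes were called. The interaction was called in 1 gene, in 111 with no filter on low counts, in 4 by DESeq2, in 1 with the replicate block and in 0 to 64 with 1 library left out. The share of wild-type calls with the same sign in the knockout libraries was 98.4%, and 96.2% to 97.8% with 1 knockout library left out. When that change was tested for, pallial factors gave 20 higher and 1 lower, pan-neuronal genes 0 and 18, Shh pathway genes 2 and 6, guidance receptors 1 and 9, and growth factor receptors 8 and 11. DESeq2 gave 9 and 4 Wnt genes, and 3 endothelial genes higher and 3 macrophage genes lower in forebrain against 6 and 6. Of the named genes, DESeq2 lost the calls of Fgf17 (adjusted p = 0.327), Kdm5d (0.734), Fgf15 (0.0560), Neurog1 (0.0570), Isl1 (0.0725), Nr4a2 (0.0886), Gabra3 (0.190), Glrb (0.111), Igf2 (0.239), Nrg1 (0.101), Tac1 (0.0730), Lef1 (0.0910), Sufu (0.0824), Mitf (0.163), Slc5a7 (0.0649), Hbb-b1 and Hbb-bs (both 0.372). The cause of these differences was not tested. Depth limits genes near 0.190 to 0.240 CPM, such as Rax, Six6 and Slc6a3.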

Other observations

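Noncoding transcripts named for a regional transcription factor were read beside that factor, a set of pairs chosen after values were seen. Among 17 pairs by name, the noncoding transcripts with a call were Dlx1as, Dlx6os1, Dlx6os2, Emx2os, Lhx1os, Msx1os, Nkx2-2os, Otx2os1 and Six3os1. Each had the direction of its factor, and all but Emx2os, Lhx1os and Otx2os1 overlap that factor. Apart from Foxd2os, the other noncoding transcripts were not tested. Dlx1as, which overlaps Dlx1, measured 71.9 and 53.9 CPM in forebrain and 8.09 and 7.11 CPM in midbrain (log2 difference 3.04, SE 0.16). Dlx6os1, which overlaps Dlx6, measured 64.2 and 53.3 CPM in forebrain and 5.75 and 4.87 CPM in midbrain (log2 difference 3.46), against a log2 difference of 1.94 for Dlx6. Emx2os, 54 bases from Emx2, had a log2 difference of 2.12 against 2.91 for Emx2. On the midbrain side, Lhx1os, 125 bases from Lhx1, had a log2 difference of -2.92 against -3.12, and Otx2os1, 1643 bases from Otx2, of -2.64 against -2.36. Foxd2os, 358 bases from Foxd2, had no call (log2 difference -0.06, adjusted p = 0.888 in edgeR). Reads of overlapping genes such as Dlx1 and Dlx1as cannot be told apart without strand.

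The noncoding transcript 5730488B01Rik, on chr4:44702800-44705110 within Pax5, measured 0.0677 and 0.0773 CPM in forebrain and 9.04 and 10.7 CPM in midbrain. It was among the 12 genes with the largest difference towards midbrain.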
